A study of Mus musculus with 24 samples.

Results

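The mitochondrial genome of the mouse was followed through 24 RNA libraries from embryos with and without *Cep135*. Its genes were taken as every row of the deposited table whose symbol begins with mt-, without use of any measured value, and there were 37 of them among 54658 genes: 13 coding for proteins, 2 for ribosomal RNAs and 22 for transfer RNAs. All 37 carry the positions of the mitochondrial chromosome in the GENCODE vM21 annotation of GRCm38, 28 on one strand (plus) and 9 on the other (minus). The minus-strand genes are mt-Nd6 and 8 tRNAs.

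The mitochondrial genome is copied and transcribed apart from the nucleus. Both strands are read as long precursors that are cut, largely at the tRNAs that stand between the other genes, into rRNAs, mRNAs and tRNAs. Its proteins are all subunits of the respiratory chain and the ATP synthase, whose other subunits come from nuclear genes, and everything that copies, transcribes and matures the mitochondrial genome is nuclear-encoded as well. Most animal mitochondrial mRNAs, and the rRNAs, receive short A tails, and this is what an oligo(dT) primer can capture.

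*Cep135* encodes a structural protein of the centriole. The mutant embryos were Cep135 (-/-), homozygous for a small deletion in an early exon made by genome editing in B6.CBA zygotes, and the control embryos were Cep135 (+/+) from the same crosses of heterozygous mice. Dorsal telencephalon was taken at E11.5 (embryonic day; 3 mutants, called A, B and C here, and 3 controls, D, E and F) and at E14.5 (mutants 1, 2 and 6 and controls 3, 4 and 5), and progenitor cells of the same 6 E14.5 embryos were grown for 12 h and for 24 h as incipient neurospheres, floating clusters of dividing progenitors. Sample titles carry 2 prefixes at E11.5 and another at E14.5, which the labels do not explain, so age and whatever the prefix marks cannot be told apart. For E11.5 mutants B and C the column headers and another text field give a different prefix, which no control carries. Their titles were followed, which places them with controls E and F. Of the E14.5 embryos, mutants 1 and 2 were female by their transcripts and mutant 6 and the 3 controls male. Another text field of mutant 6 gives E11.5 where its title and source give E14.5, and it was kept at E14.5.

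Libraries held 4732781 to 11645213 reads on genes. The values are 3′ end read counts divided by 1 factor per library, called normalised counts below. Markers of the dorsal telencephalon were present in all 8 groups. Between 6.11% and 34.8% of the normalised counts of a library fell on *Gm42418*, a nuclear gene that contains ribosomal RNA sequence, and this share was lowest in E11.5 control E and highest in the 12 h culture of control 4. Control E also stood apart among the members, with 66211 normalised counts of mt-Nd4 against 24182 to 32248 in the other 5 E11.5 cortices.

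The sequences of the tRNAs whose values moved most with age or culture are shown first, from the GENCODE vM21 transcripts of GRCm38, 5′ to 3′ in DNA letters, with the anticodon in capitals. The anticodon was located as the only occurrence of its letters after a T within bases 26 to 38. All 6 were used whole, and each stands at the position given after its name.
mt-Tt, tRNA for threonine, chrM:15289-15355, plus strand: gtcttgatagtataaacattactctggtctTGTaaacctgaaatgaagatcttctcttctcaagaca
mt-Tc, tRNA for cysteine, chrM:5192-5257, minus strand: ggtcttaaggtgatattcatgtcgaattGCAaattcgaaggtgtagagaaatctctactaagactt
mt-Tr, tRNA for arginine, chrM:9808-9875, plus strand: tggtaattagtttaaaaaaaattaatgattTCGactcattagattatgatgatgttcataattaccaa
mt-Ta, tRNA for alanine, chrM:5018-5086, minus strand: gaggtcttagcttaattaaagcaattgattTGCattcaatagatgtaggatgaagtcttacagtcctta
mt-Tn, tRNA for asparagine, chrM:5089-5159, minus strand: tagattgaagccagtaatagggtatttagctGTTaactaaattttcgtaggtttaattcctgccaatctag
mt-Ts1, a tRNA for serine, chrM:6870-6938, minus strand: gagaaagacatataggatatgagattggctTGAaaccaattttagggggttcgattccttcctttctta

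Oligo(dT) primers can also anneal to A-rich stretches inside a transcript. A run of 6 or more A was present in 8 of the 37 members, 5 of them protein-coding. The longest runs of the protein-coding members and of the large rRNA are shown with 15 bases on each side, the run in capitals, because the members that hold them are compared below with those that do not.
mt-Nd2, chrM:4037-4074, plus strand: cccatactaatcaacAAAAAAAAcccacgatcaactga
mt-Co1, chrM:6101-6137, plus strand: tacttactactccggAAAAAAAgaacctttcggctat
mt-Nd5, chrM:12621-12657, plus strand: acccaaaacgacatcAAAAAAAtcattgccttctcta
mt-Nd4, chrM:10403-10439, plus strand: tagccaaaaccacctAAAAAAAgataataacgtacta
mt-Rnr2, chrM:1473-1509, plus strand: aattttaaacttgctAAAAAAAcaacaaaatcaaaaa

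The mitochondrial genes took 4.13% to 5.88% of the normalised counts of a library, and 5.33% to 6.902% once *Gm42418* was left out of the total. The share was 4.69% to 5.70% in the E11.5 cortices, 5.10% to 5.88% in the E14.5 cortices, 4.13% to 4.93% after 12 h and 4.59% to 5.59% after 24 h in culture. Without *Gm42418* in the total the share in the 12 h cultures was 5.33% to 6.53%, against 5.34% to 6.902% in the other 18 libraries, and *Gm42418* itself took 10.7% to 34.8% of the 12 h counts. The part of *Gm42418* in the lower 12 h share beyond this change of denominator was not tested.

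Within the mitochondrial counts the 2 rRNAs made up 54.5% to 72.9%, the protein-coding members 26.9% to 45.4% and the tRNAs 0.109% to 0.311%. The rRNA part was lowest in E11.5 control E (54.5%) and in the 12 h culture of control 5 (56.7%), 2 libraries with low *Gm42418* shares, 6.11% and 10.7%. The next lowest rRNA parts were 59.9% at a share of 9.44% (24 h control 3) and 60.3% at 6.26% (24 h control 5), also low shares. E14.5 control 5, with a share of 9.78%, had 64.6%. The tRNA part had a median of 0.133% in the E11.5 cortices and 0.219% in the E14.5 cortices, and the groups overlapped, with 0.145% in E14.5 mutant 6 and 0.229% in E11.5 mutant C.

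**Figure D1:**
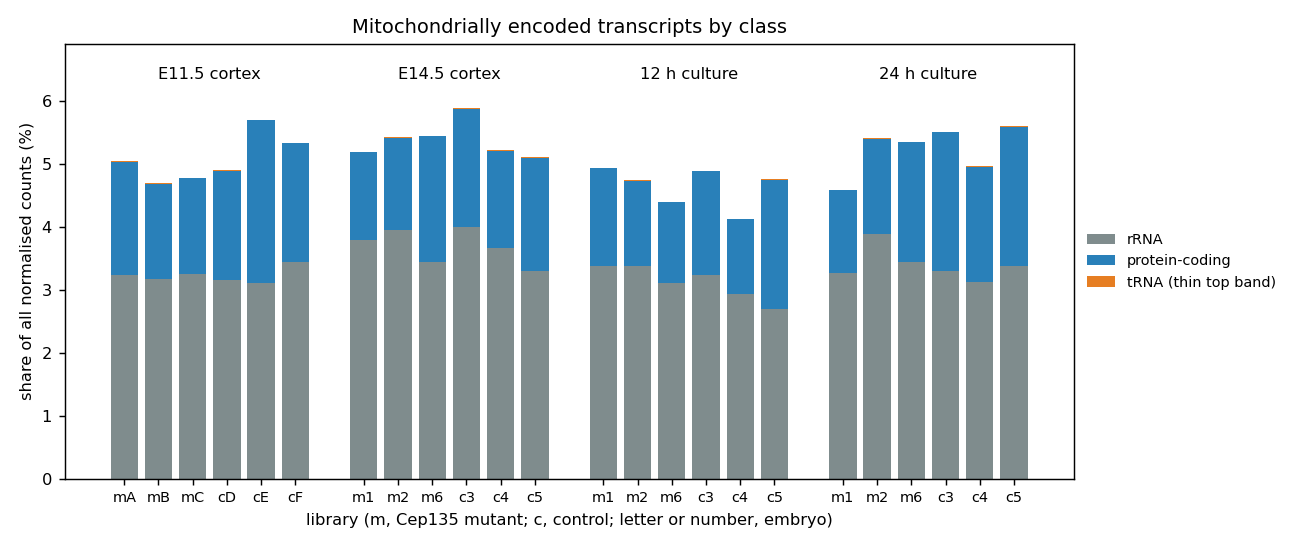
Share of all normalised counts on mitochondrially encoded genes in each of the 24 libraries (y axis, %), stacked by class, with mutants (m) to the left of controls (c) in each stage. Bars reach from 4.13% to 5.88%, the rRNAs form the largest class in every library, and the tRNAs are a band too thin to read, 0.109% to 0.311% of the mitochondrial counts.

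Per kilobase of gene, and as a mean over the 24 libraries, mt-Rnr2, the RNA of the large mitochondrial ribosomal subunit, was first with 107088 normalised counts, and mt-Rnr1, that of the small subunit, followed with 91163. Among the protein-coding members mt-Nd2 had 45181 per kilobase, mt-Nd4 22342 and mt-Nd1 22243, all 3 subunits of complex I, the NADH dehydrogenase. Then came mt-Cytb of complex III (9142), mt-Co3 of cytochrome oxidase (8001), and mt-Atp6 and mt-Atp8 of the ATP synthase (5179 and 5060). mt-Co1, the catalytic subunit of cytochrome oxidase, had 2696, mt-Nd3 2520 and mt-Nd5 2220. The neighbours mt-Nd4 and mt-Nd1, and mt-Atp6 and mt-Atp8, differed far less than either varied between libraries, where mt-Nd4 ranged 3.91-fold and mt-Atp6 3.08-fold. A 3′ protocol counts primed ends rather than bases, so this order describes reads.

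At the low end mt-Nd6, the one mRNA of the minus strand, had 218 per kilobase and 46.4 to 179 normalised counts in a library. mt-Co2, a subunit of cytochrome oxidase that carries a copper centre, had 52.2 to 221 normalised counts, whereas mt-Co1 and mt-Co3 of the same enzyme had at least 2516 and 2766. mt-Nd4l was the one protein-coding member too low for testing, at 0 to 6.69 normalised counts, with 15 of 24 libraries above 0.

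Nuclear copies limit several of these levels. A stretch of chromosome 1 (GRCm38, chr1:24611535-24616197, 4663 bases) holds 7 pseudogenes that are at least 99.71% identical to mitochondrial genes over the aligned part: those of mt-Atp6, mt-Co2, mt-Co3 and mt-Nd4l match without a difference over 678, 681, 783 and 294 bases, that of mt-Nd3 over 345 bases at 99.71%, that of mt-Nd4 over its first 876 of 1378 bases, and that of mt-Co1 over its last 483 bases at 99.79%. A read that fits both places equally well may have been given to neither, and these 7 pseudogenes were listed between 0 and 15.3 normalised counts. Levels of these 7 members are therefore uncertain. mt-Atp8 lies between mt-Co2 and mt-Atp6. The copies of these neighbours, chr1:24614885-24615565 and chr1:24613974-24614651, lie as far apart as the parts they match. Sequence outside annotated transcripts was not searched, so a copy of mt-Atp8 there was not tested. The search required 200 aligned bases, more than any tRNA gene has, so it could not find copies of tRNAs. Among the tested tRNAs, mt-Ts1 and mt-Tr lie between members with a copy, and their levels may be uncertain too. On chromosome 2, a copy of mt-Co2 (95.9% identity over 684 bases) had 17.9 to 50.5 normalised counts. A copy of mt-Co1 there (97.6% over 1545 bases) had 45.9 to 153. Overlapping genes add further uncertainty: mt-Atp8 and mt-Atp6 share 43 bases on the same strand, while mt-Nd5 and mt-Nd6 share 14 bases on opposite strands, which the strand-aware counting told apart.

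The 22 tRNAs were low. Mature tRNAs carry no A tail, so a read on a tRNA gene need not come from a mature tRNA. mt-Tm (methionine) had the highest mean of the tRNAs, 144 normalised counts, followed by mt-Tq (glutamine, 129.5), mt-Tt (117) and mt-Ti (isoleucine, 116). A filter at a mean of 10 in the libraries compared left 11 to 13 of the 22 tRNAs for testing, together with 12 of the 13 protein-coding members and both rRNAs. In all, 25 members were tested in comparisons within the E11.5 cortices and within the cultures and 27 in those that include the E14.5 cortices.

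The first question is whether loss of *Cep135* changed the mitochondrial transcripts. At an adjusted p under 0.05 (limma on log2 of the normalised count plus 1, adjusted over all genes), 0 of the 25 members tested were called at E11.5, where 0.0149% of all genes were. At E14.5 the count was 0 of 27 (0.0736% of all genes, 0.0442% higher and 0.0294% lower in mutants), after 12 h in culture 0 of 25 (0% of all genes) and after 24 h 0 of 25 (0.271%). In one fit of the 12 cortices it was again 0 of 27 (0.139%, with 0.0952% higher and 0.044% lower). At an unadjusted p under 0.05 the counts were 4, 0, 0, 1 and 1. On whole reads, edgeR and DESeq2 also called 0 members at E14.5, 12 h and 24 h, with 0, 0 and 3 members at an unadjusted p under 0.05 in edgeR and 0, 1 and 3 in DESeq2. These p-values measure the spread between these embryos. With so few genes called in the whole table, these counts say little about the members in particular.

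Some sums of markers of the tissue and of other cells differed between the genotypes in the same libraries. The summed normalised counts of 7 genes of the dorsal telencephalon were 2648 to 2934 in E11.5 mutants against 3024 to 3725 in controls, 5144 to 6761 against 7510.2 to 8204 at E14.5, and 4107 to 4703 against 4717 to 5932 at 24 h, without overlap. Those of 6 genes of the ventral telencephalon were 885 to 1092.0 against 1306 to 1534 at E11.5. Those of 7 microglial genes were 751 to 911 in E14.5 mutants against 393 to 463 in controls, and 6.31 to 15.6 against 18.8 to 40.9 at 12 h. Those of 5 endothelial genes were 1086 to 1218 against 945 to 1041 at E11.5 and 70.5 to 102 against 24.3 to 50.3 at 12 h. At the stages not given here these sums overlapped between the genotypes, and those of 9 erythroid genes overlapped at every stage. Of all genes, 11% to 16.2% did not overlap, depending on the stage. The part of these markers in the genotype values was not tested.

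The rRNAs show how wide the margin is. mt-Rnr2 had 174062, 184814 and 157919 normalised counts in the E14.5 mutants 1, 2 and 6, against 191031, 172411 and 161121 for controls 3, 4 and 5. The groups overlapped fully, and the log2 difference, mutant over control, was -0.02 ± 0.21 (SE, n = 3 and 3; limma adjusted p = 0.983), with a 95% interval of -0.47 to 0.43. At 24 h the mutants had 178354, 199669.6 and 192770.1, and the controls 162920.1, 156646 and 161122. Here all 3 mutants lay above all 3 controls, with a log2 difference of 0.25 ± 0.14 (limma adjusted p = 0.585). mt-Rnr1 differed by 0.15 ± 0.14 at E11.5, 0.18 ± 0.20 at E14.5, 0.38 ± 0.18 at 12 h and 0.26 ± 0.14 at 24 h on the log2 scale, with overlapping groups each time.

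Members whose groups did not overlap numbered 2 of 25 at E11.5, 1 of 27 at E14.5, 2 of 25 at 12 h and 2 of 25 at 24 h, where 13.3%, 13.7%, 11% and 16.2% of all genes did not overlap. They were named after their values were seen. At E11.5 mt-Atp6 had 3714, 3467 and 4014 normalised counts in the mutants, against 4283, 4674 and 4959.6 for the controls, a log2 difference of -0.31 ± 0.11 (limma adjusted p = 0.610), and mt-Tp, the tRNA for proline, had 42.6, 42.4 and 49.0 against 27.2, 25.9 and 29.5, a difference of 0.68 ± 0.22 (limma adjusted p = 0.610). Neither kept its groups apart at E14.5. At E14.5 it was mt-Tl1, and in culture mt-Tm and mt-Tw after 12 h and mt-Rnr2 and mt-Tw after 24 h. mt-Tw, the tRNA for tryptophan, had 25.1, 19.2 and 33.2 normalised counts in the 24 h mutants, against 6.83, 16.9 and 12.5 for the controls, a log2 difference of 1.09 ± 0.52 (limma adjusted p = 0.484).

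Of the mRNAs, mt-Cytb lay lower on average in the mutants of each stage. Its normalised counts were 10434 ± 2422 (SD, n = 3) in E11.5 mutants against 14161 ± 2163 in controls, 10531 ± 4948 and 12975 ± 3631 at E14.5, 8503 ± 2683 and 9248 ± 3180.1 at 12 h, and 8024 ± 2943 and 9796 ± 3753 at 24 h. The groups overlapped in all 4, and the log2 difference in the 12 cortices was -0.41 ± 0.19 (limma adjusted p = 0.551). With embryo sex in the fit the mt-Cytb difference turned to 0.35 at E14.5, 0.37 at 12 h and 0.29 at 24 h. There both females are mutants and all controls male, so these values set mutant 6 alone against the 3 controls. mt-Co1 differed by 0.25 ± 0.13 at E11.5 and by -0.27 ± 0.15 at E14.5. The change between the ages, -0.52 ± 0.21, was the one of 27 members with an unadjusted p under 0.05 in that interaction (limma adjusted p = 0.620), and 0% of all genes were called there. Interactions of genotype with culture and with culture time called 0 of 27 and 0 of 25 members, and 0% of all genes in both.

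mt-Nd4 showed the largest log2 difference by genotype among the mRNAs at 24 h, and is described for that reason. It encodes a proton-pumping membrane subunit of complex I. At 24 h the mutants 1, 2 and 6 had 16940.0, 20042 and 30909.5 normalised counts and the controls 3, 4 and 5 had 38257, 29910.2 and 48209, so that mutant 6 lay above control 4. The log2 difference was -0.80 ± 0.21 (limma adjusted p = 0.125). In the same libraries *Gm42418* took 20.5% to 23.0% of mutant and 6.26% to 13.9% of control counts. With that share as a term in the fit the mt-Nd4 difference was -0.01. The share did not overlap between the genotypes, so this fit cannot tell share and genotype apart. With embryo sex as a term, which leaves mutant 6 alone against the 3 controls, the mt-Nd4 difference was -0.30. At E11.5 the difference was -0.60 ± 0.27 (limma adjusted p = 0.670), -0.22 without control E and 0.01 with the *Gm42418* share as a term. Liver transcripts, foreign to the dissected tissue, summed over 12 genes to 127 to 455 in the 24 h mutants while the 3 controls had 1.69 to 6.83, with 9 of the 12 genes at 0 in each of them. The sums were 15.6 to 906 in E11.5 mutants and 6.22 to 14.2 in controls, also without overlap, while they overlapped at E14.5 (6.26 to 13.5 and 10.6 to 1139) and at 12 h (224 to 1090.1 and 1.57 to 1593). Their part in the result was not tested.

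For mt-Nd4 the same 3 embryos formed the upper part in cortex and in both cultures, though their ranks within it changed. Embryos 3, 5 and 6 had the 3 highest values among the 6 in cortex, after 12 h and after 24 h alike, and embryos 1, 2 and 4 the 3 lowest. In cortex mutant 6 had 46349.9 and control 5 had 44331, control 3 had 32431, and embryos 1, 2 and 4 had 21865, 24318 and 23878. After 12 h the 3 higher embryos had 32313 (control 3), 38569 (control 5) and 25095 (mutant 6), and the others 19221 to 21521. Each of the 2 sets of embryos holds both genotypes. Across all 24 libraries mt-Nd4 varied 3.91-fold, and within the E14.5 cortices 2.12-fold while mt-Nd2, a subunit of the same complex, varied 1.22-fold and mt-Cytb 2.52-fold.

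mt-Nd4 was low where *Gm42418* was high. Over the 24 libraries the correlation of the log2 values was -0.79, and -0.70 for deviations from the group means, while mt-Rnr2 had 0.75 and 0.74 and mt-Nd2 0.18 and -0.20. All of these values come from the same libraries and share their depth and scaling, and the 2 cultures come from the embryos of the E14.5 cortices, so they are descriptions.

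**Figure D2:**
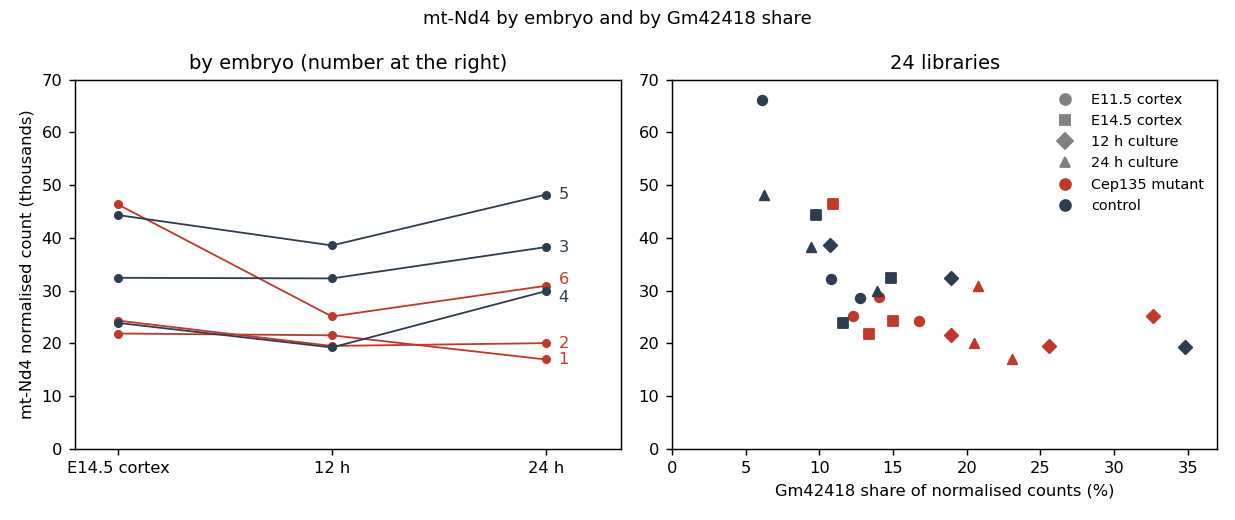
Left, mt-Nd4 normalised counts (linear y axis) in the cortex and the 2 cultures of each of the 6 E14.5 embryos, numbered at the right, mutants red and controls dark. Right, the same quantity in all 24 libraries against the share of *Gm42418* (%): the highest value, 66211, belongs to E11.5 control E with the lowest share, 6.11%, and the 6 highest values lie at shares of 6.11% to 10.9%.

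**Figure D3:**
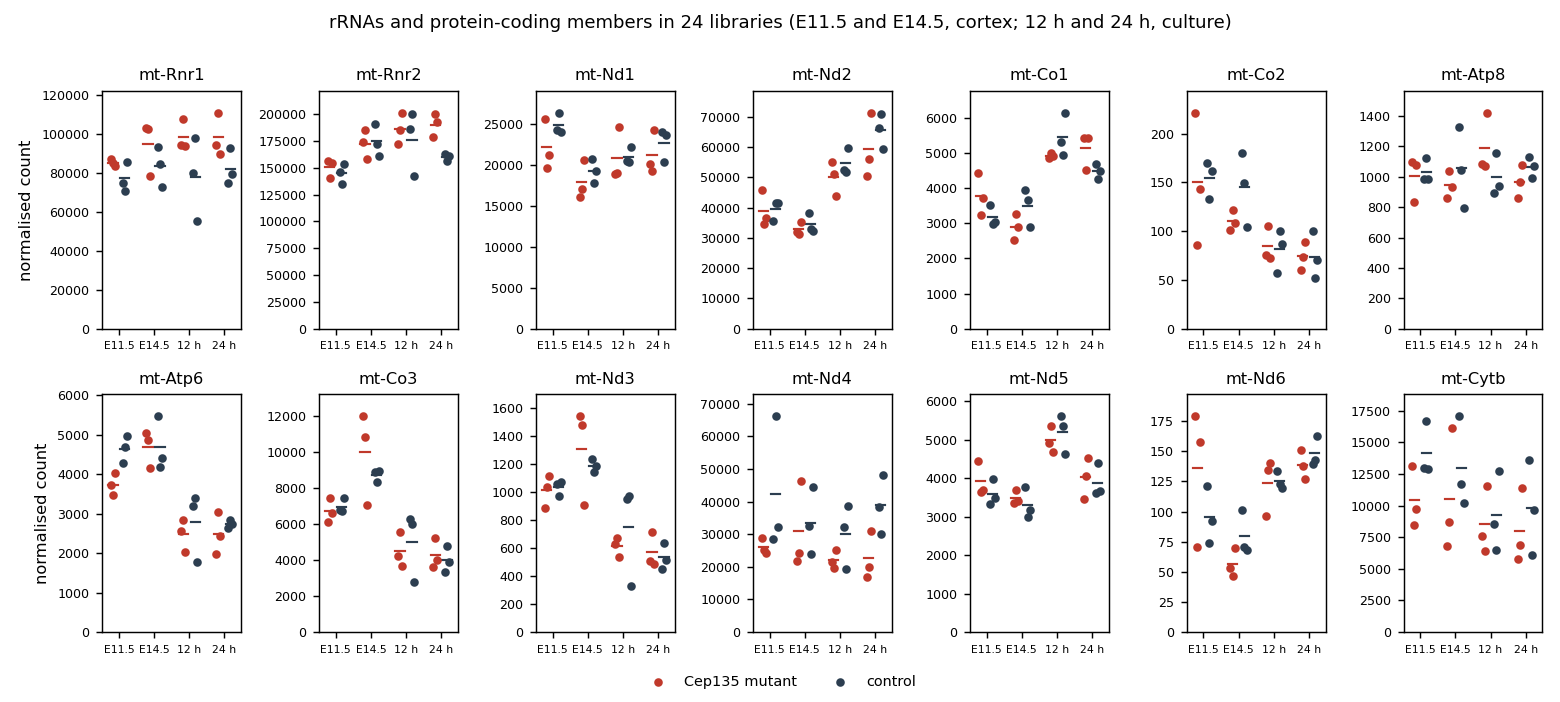
Normalised counts (linear y axes from 0) of the 2 rRNAs and the 12 tested protein-coding members in genome order, one point per library and a bar at the mean of 3, for mutants (red) and controls (dark) in each stage. Genotypes overlap in nearly every pair of columns, whereas mt-Nd2 and mt-Co1 step up and mt-Atp6, mt-Co3 and mt-Nd3 step down between the E14.5 cortex and the cultures.

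The next comparison sets the 6 E14.5 cortices against the 6 E11.5 cortices, with genotype as a term. Here 11 of 27 members were called, 9 higher and 2 lower at E14.5, where 53.1% of all genes were called, 23.8% higher and 29.3% lower. By class, 8 of the 13 tRNAs tested were higher and 0 lower, 1 of 12 protein-coding members was higher and 2 lower, and 0 of 2 rRNAs were called. mt-Ts1, mt-Tr and mt-Tl1 averaged 5.03, 7.53 and 5.77 normalised counts at E11.5 and passed the filter, a mean of 10, only through the E14.5 cortices, so these counts are a description. Of the 24 members that averaged 10 or more at both ages, 6 were higher, 5 of them among 10 tRNAs, and 2 lower, with a median log2 change of 0.01 against -0.08 for all genes.

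Markers of the tissue and of other cells moved between the same libraries. The summed normalised counts of 9 erythroid genes were 51350.2 to 82673 at E11.5 and 38256 to 45371 at E14.5, those of the 7 genes of the dorsal telencephalon 2648 to 3725 and 5144 to 8204, and those of the 6 genes of the ventral telencephalon 885 to 1534 and 2095 to 2778, none with overlap. Their part in the results was not tested.

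mt-Ta, with 11.7, 24.7 and 41.1 normalised counts (lowest, median, highest of 6) at E11.5 and 44.6, 79.2 and 109.5 at E14.5, rose by 1.59 ± 0.26 (limma adjusted p = 9.1e-05), without overlap. Its neighbour mt-Tn rose by 1.66 ± 0.30 (limma adjusted p = 2.5e-04), where the highest E11.5 value, 37.5 in mutant C, lay above the lowest E14.5 value, 32.9 in mutant 6, and no other values crossed. mt-Ta, mt-Tn and mt-Tc lie in a row on the minus strand, and mt-Tc, the tRNA for cysteine next to them, differed by -0.10 ± 0.32 (limma adjusted p = 0.820). mt-Ts1, which passed the filter only through the E14.5 cortices, had 1.67, 4.45 and 8.92 at E11.5 and 14.1, 19.0 and 29.4 at E14.5, a log2 change of 1.95 ± 0.36 (limma adjusted p = 2.5e-04) that rests on 2 to 10 reads in an E11.5 library and 12 to 27 in an E14.5 library.

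mt-Tm rose by 0.92 ± 0.18 (limma adjusted p = 5.4e-04), from 70.2 to 143 normalised counts at E11.5 to 121 to 244 at E14.5, and mt-Tl1, a leucine tRNA that directly follows mt-Rnr2, by 1.28 ± 0.32 (limma adjusted p = 0.0030). The other 3 tRNAs called were mt-Tr at 1.52 ± 0.41, mt-Ti at 0.48 ± 0.14 and mt-Tp at 0.60 ± 0.20. The 8 stood on both strands, 4 of 14 plus-strand and 4 of 8 minus-strand tRNAs, with 8 and 1 of them untested. mt-Tl1 and mt-Tr on the plus strand and mt-Ts1 on the minus strand passed the filter only through the E14.5 cortices. The tRNA with the largest change in culture, mt-Tt, differed by -0.38 ± 0.30 between the ages.

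Among the mRNAs mt-Co3 rose by 0.43 ± 0.11 (limma adjusted p = 0.0048), from 6096, 6745 and 7447 to 7080.0, 8924 and 12001 normalised counts, the ranges overlapping through mutant 6. mt-Nd1 fell by 0.34 ± 0.10 (limma adjusted p = 0.0073), from 19693, 24232 and 26419 to 16161, 18572 and 20729.5. mt-Nd6 fell by 0.71 ± 0.24 (limma adjusted p = 0.0213), from 70.3, 107 and 179 to 46.4, 68.8 and 101. The mt-Nd6 call was lost without E11.5 mutant A, E11.5 mutant C or E14.5 mutant 2, at 0.0567 to 0.0595 for the adjusted p. mt-Co1 (-0.12 ± 0.12) and mt-Cytb (-0.11 ± 0.19) did not pass the test.

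Of the rRNAs, mt-Rnr2 had 134943, 149905 and 156279 normalised counts at E11.5 and 157919, 173236 and 191031 at E14.5. All 6 E14.5 values lay above all 6 E11.5 values, but the log2 difference of 0.23 ± 0.12 was not called (limma adjusted p = 0.115), and 30.5% of all genes did not overlap between the ages. mt-Rnr1 differed by 0.13 ± 0.12.

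**Figure D4:**
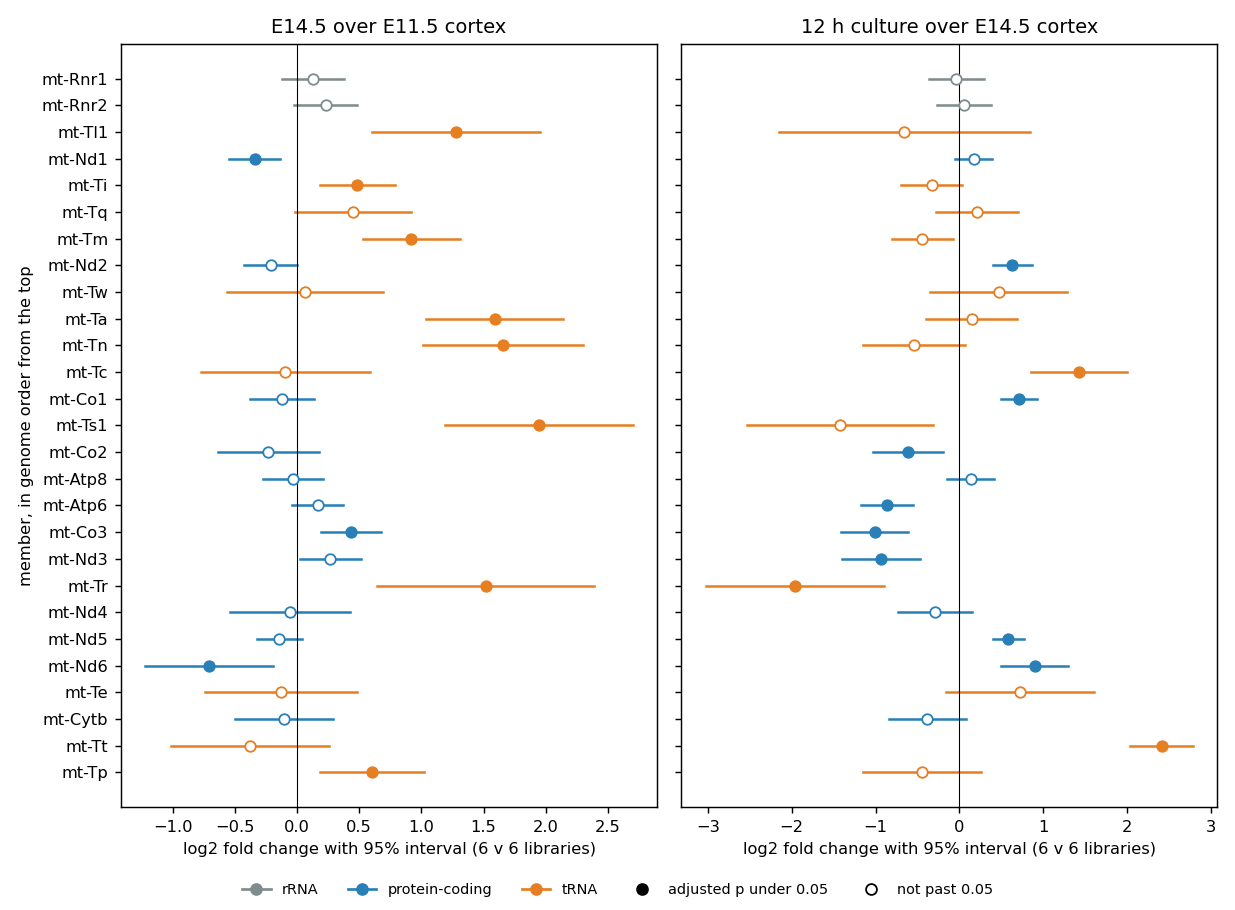
Log2 fold changes with 95% intervals for the 27 tested members in genome order, E14.5 over E11.5 cortex on the left and 12 h culture over E14.5 cortex on the right, filled where the adjusted p was under 0.05. On the left the filled points are mostly tRNAs to the right of 0, up to 1.95. That value is mt-Ts1, which passed the filter only through the E14.5 cortices, like mt-Tl1 and mt-Tr. On the right mt-Tt stands out at 2.41. To the left of 0 lie mt-Co2, mt-Atp6, mt-Co3, mt-Nd3 and mt-Tr, which follow each other among the tested members apart from mt-Atp8. mt-Tr passed the filter here only through the cortex.

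Cells of the E14.5 cortices were next compared with those grown for 12 h. Again 11 of 27 members were called, 6 higher and 5 lower in culture, where 30.2% of all genes were called, 14.1% higher and 16.1% lower. The 2 cultures and the cortex come from the same embryos. Cells of other types move with this contrast: the summed level of 7 microglial markers was 393 to 911 in the E14.5 cortices and 6.31 to 40.9 after 12 h, and that of 5 endothelial markers 793 to 933 and 24.3 to 102, while 9 erythroid markers summed to 38256 to 45371 and 69448 to 153171. Their part in the result was not tested, and in whole samples fewer cells of a type and less RNA per cell cannot be told apart.

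mt-Tt led all members. In the cortices of embryos 1, 2, 6, 3, 4 and 5 it had 37.3, 33.1, 32.1, 41.2, 50.1 and 29.6 normalised counts, and in their 12 h cultures 181, 167, 239, 214, 223 and 181. Every embryo rose, by 4.39-fold to 7.25-fold after 1 was added to each value, and the ranges were far apart. The log2 change was 2.41 ± 0.18 (limma adjusted p = 1.0e-07), the 37th smallest p among 13601 genes. The gene follows mt-Cytb directly on the same strand, and mt-Cytb did not pass the test (-0.38 ± 0.22, limma adjusted p = 0.199), with 6777, 10924 and 17077 normalised counts in cortex and 6404, 8065 and 12719 at 12 h. Over the 24 libraries the log2 values of the 2 genes correlated at -0.45, and at 0.02 for deviations from the group means, a description of libraries that share embryos.

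mt-Tc rose from 20.4, 28.8 and 40.8 to 45.6, 83.3 and 115, without overlap and in 6 of 6 embryos, by 1.42 ± 0.27 (limma adjusted p = 9.8e-04). Its minus-strand neighbours mt-Tn and mt-Ta, higher at E14.5 than at E11.5, were not called in culture (-0.54 ± 0.29 and 0.14 ± 0.25). mt-Tr went the other way, from 13.3, 19.9 and 27.1 to 1.52, 5.24 and 8.42, lower in 6 of 6 embryos, by -1.97 ± 0.50 (limma adjusted p = 0.0078), on 12 to 29 reads in a cortex library and 1 to 8 in a culture. With means of 19.6 in cortex and 5.04 in culture it passed the filter only through the cortex, where it is high. mt-Ts1, which also averaged under 10 in culture (9.10), had -1.43 ± 0.52 (limma adjusted p = 0.05003), and with the embryo as a replicate block it was called (adjusted p = 0.0496). Over the alternatives, edgeR and DESeq2 among them, its adjusted p ran from 0.0398 to 0.348, and without 1 library from 0.0182 to 0.107.

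The mRNAs of 4 subunits rose. mt-Co1 went from 2516, 3079 and 3946 normalised counts to 4853, 4963 and 6138, without overlap, by 0.71 ± 0.10 (limma adjusted p = 7.3e-05). mt-Nd2 went from 31400.1, 32616 and 38195 to 43767, 52014 and 59821, by 0.63 ± 0.11 (limma adjusted p = 4.6e-04), and mt-Nd5, another proton-pumping subunit of complex I, from 3003, 3379.6 and 3770.4 to 4636, 5126 and 5616, by 0.58 ± 0.09 (limma adjusted p = 1.6e-04), both without overlap. mt-Nd6 rose by 0.90 ± 0.19 (limma adjusted p = 0.0020), from 46.4, 68.8 and 101 to 96.5, 129 and 141, with ranges that met through control 3 in cortex and mutant 1 in culture. All 4 were higher in 6 of 6 embryos.

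A further 4 mRNAs fell, and their genes lie close together. mt-Co3 went from 7080.0, 8924 and 12001 to 2766, 4909.6 and 6300.0, by -1.01 ± 0.19 (limma adjusted p = 8.2e-04), and mt-Atp6, the proton-channel subunit of the ATP synthase, from 4146, 4631 and 5467 to 1776, 2701 and 3398, by -0.86 ± 0.15 (limma adjusted p = 4.1e-04), neither with overlap. mt-Nd3 went from 908, 1212 and 1545 to 329, 652 and 976, by -0.94 ± 0.22 (limma adjusted p = 0.0045), and mt-Co2 from 102, 115 and 180.0 to 56.6, 81.7 and 105, by -0.61 ± 0.20 (limma adjusted p = 0.0280). All 4 were lower in 6 of 6 embryos. The mt-Co2 call was lost without E14.5 mutant 2, without control 3 or 4 in cortex, or without control 3 at 12 h, at an adjusted p of 0.0569 to 0.0796.

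The calls are set here beside 2 features of sequence that the choice of members did not use. Of the 7 protein-coding members with a near-identical copy on chromosome 1, 4 were lower and 1 (mt-Co1) higher. Of the other members with a copy, mt-Nd4 was not called and mt-Nd4l not tested. Of the 6 for which the search found no such copy, 3 were higher and 0 lower. mt-Atp8 is among these 6, although the copy of mt-Atp6 includes the 43 bases that the 2 genes share. Only annotated transcripts were searched, and the copies of mt-Co2 and mt-Atp6 lie as far apart as the parts they match. Whether the rest of mt-Atp8 lies between them was not tested, so its place among the 6 is uncertain. Of the 5 protein-coding members with a run of 6 or more A, 3 were higher and 0 lower. Of the 8 protein-coding members with shorter runs 1 was higher and 4 were lower. Outside the protein-coding class, mt-Tr, with a run of 8 A, was lower. mt-Rnr2, with 7, was not called, and mt-Th, with 6, was not tested. mt-Tr lies between mt-Nd3 and mt-Nd4l, which both have a copy, and a tRNA was too short for the search to find its copy. All 4 that fell have both a copy and only shorter runs, so the 2 features cannot be told apart for them, and the part of either in the result was not tested. The 4 protein-coding members that fell all lie in the 3161 bases from mt-Co2 to mt-Nd4l. mt-Atp8, in the same stretch and overlapping mt-Atp6, differed by 0.13 ± 0.13 (limma adjusted p = 0.482).

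mt-Atp6, mt-Co3 and mt-Nd3 were also compared with group means removed. For deviations from the group means over the 24 libraries the log2 values of mt-Co3 and mt-Nd3 correlated at 0.95, those of mt-Atp6 and mt-Co3 at 0.85 and those of mt-Atp6 and mt-Nd3 at 0.86, and mt-Co3 and mt-Co1 at -0.49. mt-Co3 and mt-Rnr1 correlated at 0.85 too, so that this is not particular to the 3. The lowest values of all 3 belonged to the 12 h culture of control 5, with 1776, 2766 and 329 normalised counts. These libraries share embryos and scaling, and the values are descriptions.

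Neither rRNA passed the test. mt-Rnr1 differed by -0.04 ± 0.16 (limma adjusted p = 0.890; 95% interval -0.37 to 0.30) and mt-Rnr2 by 0.06 ± 0.15 (limma adjusted p = 0.813; 95% interval -0.27 to 0.38). The 12 h culture of control 5 was lowest in both, with 55214 and 142028 normalised counts against 79917 to 107364 and 172117 to 201227 in the other 5.

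**Figure D5:**
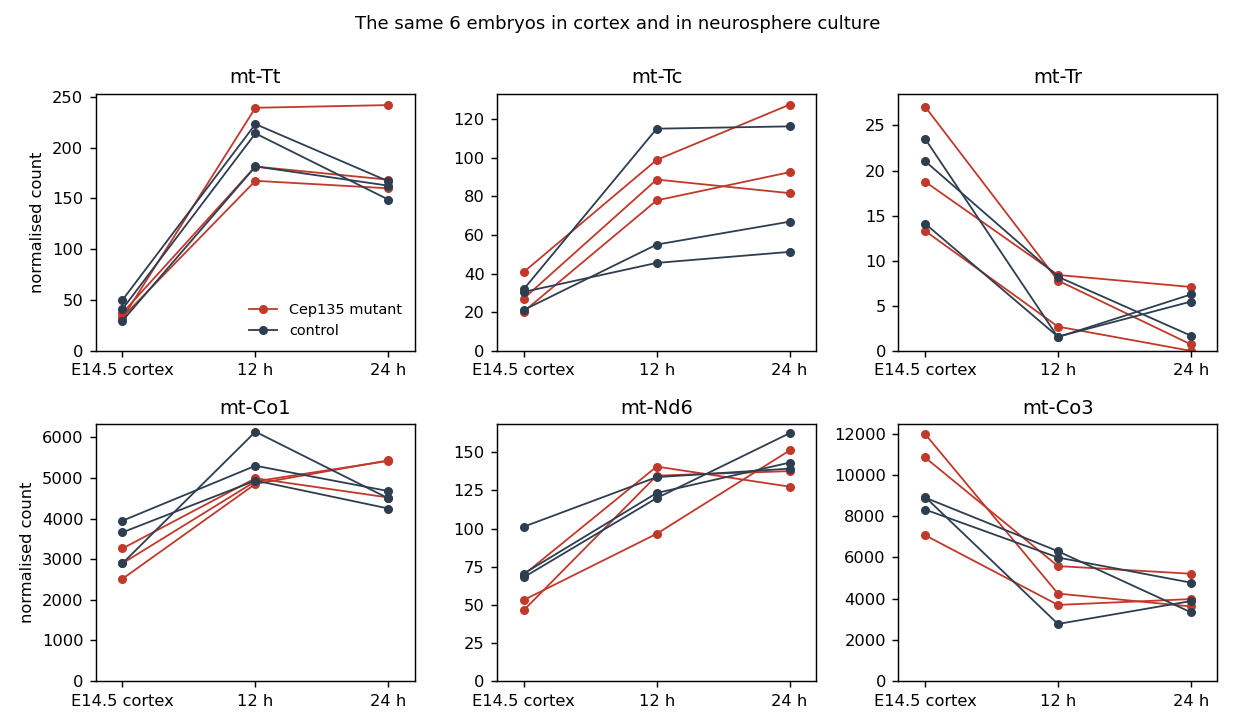
Normalised counts of 6 members in the cortex of each E14.5 embryo and in its 12 h and 24 h cultures, one line per embryo, mutants red and controls dark. All 6 lines rise for mt-Tt, mt-Tc, mt-Co1 and mt-Nd6 and all fall for mt-Tr and mt-Co3 by 12 h, and mutant and control lines cross.

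Between 12 h and 24 h little moved. With limma, in a fit that did not pair the libraries by embryo, 0 of 25 members were called, where 0.292% of all genes were. At an unadjusted p under 0.05 there were 4 members. mt-Tt stood at 149, 165 and 242 at 24 h, 3.29-fold to 7.34-fold the cortex of the same embryo on the same scale, and mt-Co3 at 3336, 3926 and 5207. mt-Nd5 came nearest: its 12 h values of 4636, 5126 and 5616 all lay above the 24 h values of 3472, 3865 and 4522, as was so for 0.928% of all genes in either direction. It was lower in 6 of 6 embryos, by -0.37 ± 0.09 (limma adjusted p = 0.0903). With the embryo as a replicate block the adjusted p was 0.0304, so that 1 member was called in place of 0, and DESeq2 on whole reads gave 0.0098 and edgeR 0.0859. mt-Nd5 is named here for having passed under some settings, after its values were seen.

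The nuclear genes that serve the mitochondrial genome were read from a list of 43, of which 41 were in the table and 38 or 39 could be tested. It holds the polymerases, transcription and termination factors, RNA-processing and RNA-binding proteins and the nuclear regulators of these. With limma 0 were called by genotype in each of the 4 stages, and 1, 0, 1 and 5 had an unadjusted p under 0.05. At E14.5 3 were higher and 16 lower than at E11.5, of 39, with a median of -0.28 against -0.08 for all genes. That is 48.7% called, where 53.1% of all genes were (23.8% higher, 29.3% lower). *Ppargc1a*, a coactivator that promotes mitochondrial biogenesis, rose by 0.95 ± 0.12 and *Esrra*, a nuclear receptor it works with, by 0.66 ± 0.20, and *Tfb2m*, a transcription factor of the mitochondrial polymerase, by 0.34 ± 0.10. *Tfb1m*, a methyltransferase of the small-subunit rRNA, fell by 0.86 ± 0.15, *Pprc1*, a relative of *Ppargc1a*, by 0.77 ± 0.11, *Fastkd2*, an RNA-binding protein of the mitochondrial matrix, by 0.74 ± 0.12, and *Hsd17b10*, a subunit of the enzyme that cuts tRNA 5′ ends, by 0.48 ± 0.09 (limma adjusted p from 7.4e-06 for *Ppargc1a* to 0.0121 for *Tfb2m*).

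After 12 h in culture 5 of 39 such genes were higher and 6 lower, 28.2% in all, where 30.2% of all genes were called (14.1% higher, 16.1% lower). *Pprc1* rose by 0.70 ± 0.16, *Polg*, the catalytic subunit of the mitochondrial DNA polymerase, by 0.54 ± 0.14, *Nrf1*, a nuclear transcription factor, by 0.43 ± 0.13, and *Lrpprc*, which stabilises mitochondrial mRNAs, by 0.66 ± 0.21. *Hsd17b10* fell by 0.56 ± 0.11, *Ppargc1a* by 0.55 ± 0.16, *Mterf2*, of the termination factor family, by 0.82 ± 0.24, and *Grsf1*, an RNA-binding protein of mitochondrial RNA granules, by 0.36 ± 0.11 (limma adjusted p from 0.0013 for *Hsd17b10* to 0.0242 for *Lrpprc*). Between 12 h and 24 h limma called 0 of 38, and 4 had an unadjusted p under 0.05.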

How the data were processed

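RNA of 24 libraries was measured by oligo(dT)-primed, strand-specific 3′ sequencing. The authors aligned reads to GRCm38 with TopHat2 2.0.10 (Bowtie 1.0.0, SAMtools 0.1.19), allowing several alignments per read, and counted them per gene with HTSeq 0.6.1. The deposited table holds signal, gene counts divided by 1 factor per library, without pooling. All 484666 values above 0 were whole multiples of 1 read (tolerance 0.001), 100% of them. This holds for all 24 libraries. The factor of E11.5 control D, 0.992, is close to 1, and comparisons with that library were not run on reads.

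Tests used limma 3.58.1 (R 4.3.3, trend) on log2(normalised count + 1) of genes averaging 10 or more over the libraries entering a fit. Benjamini-Hochberg adjustment ran over all of these genes, with a threshold of 0.05. Errors are standard errors unless given as SD, and fold changes on this scale understate those of low genes. Genotype was tested within each stage, stages with genotype as a term, and their interactions in the same fits. edgeR 4.0.16 and DESeq2 1.42.0 on whole reads were alternatives, and the code was tested on simulated data. Cultures and cortices pair by embryo, as the labels say. The main fits left this pairing out, and the alternative with the embryo as a replicate block used it. Deviations from group means of same-embryo libraries correlated at -0.11 to 0.24 over 18 pairs. Embryos of a group are separate animals.

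Named were, per comparison, up to 6 members in each direction with the smallest p past the threshold, and always mt-Rnr1, mt-Rnr2, mt-Co1, mt-Cytb and mt-Nd6, and other members only as said. mt-Tr, mt-Ti and mt-Tp between the ages, and mt-Ts1 and mt-Atp8 in culture, were added after their values were seen, and so was mt-Nd4. The members, lists and tests were chosen with earlier results of these data known. Gene positions and sequences came from GENCODE vM21, whereas the authors counted on an earlier release. Copies were sought by blastn in the transcripts, from 95% identity over 200 bases.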

Additional observations from a re-analysis of the deposited data

How the results depend on the processing

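Calls by genotype and in the 3 interactions stayed at 0 members under every alternative that was run. The 11 members called between the ages became 7 to 14 (7 with a mean of at least 50, which leaves fewer tRNAs to test) and 9 to 13 without 1 library, and the 11 called in 12 h culture became 9 to 13 and 10 to 12. With the embryo as a replicate block 12 members were called in 12 h culture and 1, mt-Nd5, at 24 h over 12 h. mt-Nd5 was also the 1 member called there at an adjusted p under 0.1, with quantile normalization, with all 24 libraries in one fit, with DESeq2 and on rescaling to the mitochondrial sum, against 0 in the other settings and without any 1 library.

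The 22 calls, 11 between the ages and 11 in 12 h culture, belong to 19 members and kept their direction in all settings. The call held in 263 alternative fits and was lost in 6. It held in 253 fits without 1 library and was lost in 7. Among the 22 calls are mt-Ts1, mt-Tr and mt-Tl1 between the ages and mt-Tr in culture. These passed the filter only through the libraries where they are high, so for them the counts are a description. With the *Gm42418* share as a term, an alternative added after seeing the data, mt-Tc (0.96, adjusted p = 0.0754), mt-Nd6 (0.75, 0.0665) and mt-Co2 (-0.81, 0.0606) were no longer called in 12 h culture. Between the ages mt-Tl1 and mt-Tp were lost with all 24 libraries in one fit (0.124 and 0.0881) and mt-Nd1 without a filter (0.0584). Nuclear-encoded factors called were 13 to 22 between the ages and 3 to 14 in 12 h culture.

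Directions that turned belonged to differences that did not pass the test, and the cause was not tested. By genotype at 24 h the *Gm42418* share did not overlap between mutants and controls. A fit with that share cannot tell it apart from genotype there. With the *Gm42418* share as a term the log2 values were: by genotype at E11.5 mt-Rnr2 -0.039, mt-Nd6 -0.085 and mt-Nd4 0.014, at 12 h mt-Rnr2 -0.020 and mt-Cytb 0.023, at 24 h mt-Cytb 0.48 and mt-Nd6 0.056, in the 12 cortices mt-Rnr2 -0.065, in 12 h culture mt-Rnr2 -0.20 and mt-Nd4 0.17, at 24 h over 12 h mt-Rnr2 0.077, by age mt-Rnr2 0.036 and mt-Cytb -0.0042, and by culture time mt-Cytb 0.18. With embryo sex as a term, which at E14.5 and in the cultures sets mutant 6 alone against the 3 controls and assumes that it varies like the others, they were at E14.5 mt-Rnr1 -0.079 and mt-Cytb 0.35, at 12 h mt-Cytb 0.37 and mt-Nd6 0.16, at 24 h mt-Cytb 0.29 and in the 12 cortices mt-Rnr2 -0.0067. Quantile normalization gave mt-Rnr1 -0.15 between the ages, -0.10 at 24 h over 12 h and 0.033 by culture time, and no value where mt-Rnr2 held the same rank in all libraries. Rescaling to the mitochondrial sum, also added later, gave mt-Co1 0.0037 in the 12 cortices and mt-Rnr1 -0.017 by age. Rescaling without *Gm42418* and mitochondrial genes gave mt-Nd6 0.013 at 12 h and mt-Rnr2 -0.011 in 12 h culture.

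Leaving out 1 library at a time turned these, with the range of values: mt-Rnr2 at E14.5 -0.078 to 0.045, at 12 h -0.055 to 0.19, in the 12 cortices -0.0095 to 0.050 and at 24 h over 12 h -0.10 to 0.0083; mt-Cytb at 12 h -0.35 to 0.15, at 24 h -0.58 to 0.0015, between the ages -0.27 to 0.0079 and at 24 h over 12 h -0.15 to 0.11; mt-Nd6 at 12 h -0.14 to 0.13 and in the 12 cortices -0.20 to 0.10; mt-Co1 in the 12 cortices -0.094 to 0.059; mt-Rnr1 in 12 h culture -0.11 to 0.077 and at 24 h over 12 h -0.054 to 0.13. By age mt-Rnr1 ran from -0.063 to 0.16 and mt-Cytb from -0.27 to 0.36. By culture mt-Rnr1 ran from -0.026 to 0.39, mt-Rnr2 from -0.035 to 0.21 and mt-Cytb from -0.014 to 0.61. By culture time mt-Rnr1 ran from -0.31 to 0.10, mt-Cytb from -0.47 to 0.11 and mt-Nd6 from -0.23 to 0.041. edgeR and DESeq2 were not run where E11.5 control D takes part. Depth limits the low tRNAs, several of which rest on under 10 reads in a library.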
